A study of Mus musculus with 6 samples.

Results

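The mitochondrial calcium uniporter and the voltage-dependent anion channels (VDACs) are described here in mouse germinal vesicle (GV) oocytes, the grown female germ cells arrested in meiotic prophase. The members were the 8 genes of the deposited table whose symbol is Mcu, Micu2, Micu3, Smdt1, Mcur1, Vdac1, Vdac2 or Vdac3, out of 25353 genes in all. Each symbol matched 1 row, and all 8 passed the filter on low values that left 18762 genes for testing. RNA was sequenced from 3 wild-type (WT) libraries and 3 libraries labelled knockout (KO). Each library pooled 5 GV oocytes of C57BL/6J mice whose age is given as 8 weeks in the protocol and as P1 in the age field. The series title and design text call the deleted gene Mfn2, while the genotype and treatment fields of the samples read Mfn1-/-, and no source used here gives the promoter or Cre line behind the deletion. The groups carry no other stated allele or agent, and nothing ties a pool to its own mouse, so every p-value measures the spread between pools, which may be technical. In oocyte pools, fewer transcripts per cell and fewer cells contributing RNA cannot be told apart.

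Of the mitofusins, Mfn2 stood at 25.5, 38.1 and 32.3 normalized counts (WT) against 5.25, 5.28 and 4.50 (KO), and Mfn1 had 363, 299 and 360 in WT and 398, 382 and 379 in KO. Mfn2 was therefore the gene that was lower in the libraries labelled KO (limma adjusted p = 0.00487), and Mfn1 did not pass the test (adjusted p = 0.482). Libraries held 6450191 to 7992598 reads in genes. All 15 oocyte markers were present, with summed normalized counts of 189930 to 219350 in WT and 150040 to 190260 in KO. Summed granulosa markers (10 genes) ran from 608 to 1377 in WT and from 493 to 617 in KO, stromal markers (6 genes) from 26.8 to 152 and from 8.09 to 11.6, and theca and steroidogenic markers (4 genes) from 5.58 to 1290 and from 8.40 to 49.5. WT replicate 1 was the highest library for these 3 lists and for the summed oocyte markers. The stromal sums, and those of immune markers, were higher in every WT library than in any KO library. At a limma adjusted p under 0.05, 2 oocyte markers and 1 marker each of the granulosa, stromal and theca lists were lower in KO. Of all tested genes, 1.41% were called lower. The part of these differences in any member's value was not tested.

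The uniporter is a calcium channel of the inner mitochondrial membrane. MCU forms its pore, EMRE (encoded by Smdt1) is a small subunit that the animal channel needs to conduct and that holds the gatekeepers to the pore, and MICU2 and MICU3 are calcium-sensing gatekeepers with EF hands. MCUB is a paralog of MCU that lowers conductance, and MCUR1 is an inner membrane protein that promotes uniporter assembly and uptake. Calcium reaches the uniporter through the VDACs, beta-barrel channels of the outer membrane that also pass ATP, ADP and other metabolites. VDAC1 can be coupled to the inositol trisphosphate receptors of the endoplasmic reticulum, VDAC2 binds the cell death protein BAK at the outer membrane, and VDAC3 is the least studied of the family. In oocytes, mitochondria take up calcium during the oscillations that follow sperm entry, and mitofusin 2 is known for its place at contacts between mitochondria and endoplasmic reticulum.

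The sequences of the VDAC family decide how far the counts of each gene can be read, so the last 75 bases of the coding sequence, the length of a sequencing read, are shown first. They come from GENCODE release M21 transcripts (GRCm38), written 5′ to 3′, and capitals mark bases that differ from Vdac3.
Vdac3: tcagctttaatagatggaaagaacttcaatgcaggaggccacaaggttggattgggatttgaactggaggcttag
Vdac3-ps1: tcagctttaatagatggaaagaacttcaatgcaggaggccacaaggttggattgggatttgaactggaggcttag
Vdac2: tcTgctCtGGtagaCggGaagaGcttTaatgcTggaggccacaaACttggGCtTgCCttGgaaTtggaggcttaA
Vdac1: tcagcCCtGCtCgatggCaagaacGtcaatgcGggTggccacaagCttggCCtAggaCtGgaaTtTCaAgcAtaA
In this stretch Vdac2 differed from Vdac3 at 19 bases and Vdac1 at 21, whereas the annotated pseudogene Vdac3-ps1 did not differ at all.

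Over the whole coding sequence the 3 VDAC genes were well apart from each other. Vdac2 and Vdac3 were identical at 73.6% of aligned bases, Vdac1 and Vdac2 at 72.0%, and Vdac1 and Vdac3 at 67.6%. The longest identical run between any of these pairs was 17 bases, far under a read of 75 bases. The same held in the uniporter, where Mcu and Mcub were identical at 62.3% of aligned bases and Micu2 and Micu3 at 67.8%, with no identical run over 15 bases. Reads of these paralogs can therefore be told apart by sequence.

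Vdac3 and Vdac3-ps1 were the exception. The pseudogene (chromosome 13, 18030741 to 18031593, minus strand, GRCm38) is a single stretch of 853 bases. It was identical to the 852-base Vdac3 coding sequence at 848 positions (99.5%), with the substitutions T21C, T237C, G404A and T445G (Vdac3 base, position from the first base of the Vdac3 start codon, pseudogene base). Of all 778 windows of 75 bases in the Vdac3 coding sequence, 566 (72.8%) occurred unchanged in the pseudogene. The stretch that holds most of the differences runs from position 226 to 445 in both, with the differing bases in capitals.
Vdac3: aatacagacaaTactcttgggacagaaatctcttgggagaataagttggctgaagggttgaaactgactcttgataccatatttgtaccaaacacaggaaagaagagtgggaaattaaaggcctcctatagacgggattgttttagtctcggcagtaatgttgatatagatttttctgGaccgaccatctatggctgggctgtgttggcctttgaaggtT
Vdac3-ps1: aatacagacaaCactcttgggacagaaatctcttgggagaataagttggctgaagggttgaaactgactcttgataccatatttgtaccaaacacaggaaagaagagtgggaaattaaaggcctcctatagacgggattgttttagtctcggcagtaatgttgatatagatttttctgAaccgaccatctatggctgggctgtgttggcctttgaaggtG
These 220 bases contain 3 differences. Over the whole Vdac3 transcript, with up to 1 mismatch, 55.8% of windows were shared with Vdac3-ps1. Another pseudogene, Gm7591, shared 26.9% on that measure and was not analysed here. How reads that match both places were counted is not given in the sources used here, so the counts of Vdac3 and Vdac3-ps1 are uncertain as separate values.

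None of the 8 members passed the limma test between KO and WT at an adjusted p of 0.05, a threshold that 3.28% of all tested genes passed (1.87% higher and 1.41% lower in KO). At an unadjusted p under 0.05 there were 3 members, Vdac2, Micu3 and Mcu, against 18% of all tested genes. On the recovered reads, edgeR called 1 member and DESeq2 called 1, Vdac2 in both, where these tools called 6.03% and 7.79% of their tested genes. The normalized counts of KO and WT did not overlap for the same 3 members, and 23.2% of all tested genes showed such a separation. With 8 genes these counts are too few to set the family apart from the background. The median log2 fold change of the members was 0.01, with 4 above and 4 below 0, and that of all tested genes was -0.01. The interval plot of fold changes gives each member's estimate with its error.

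**Figure D1:**
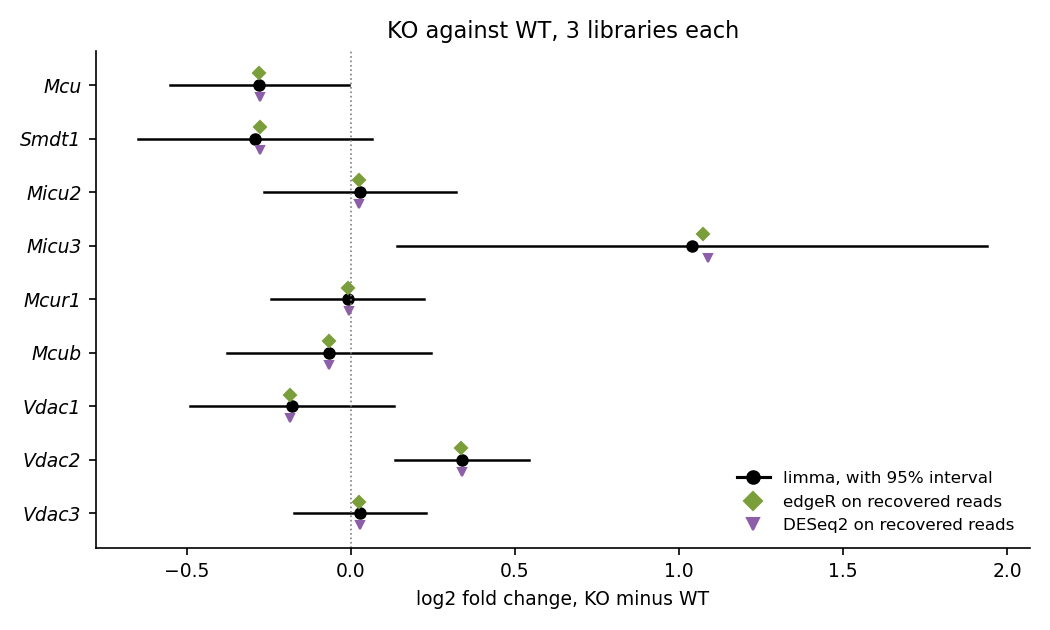
The horizontal axis is the log2 fold change of KO minus WT (3 libraries each) for the 8 members and for Mcub. Black points and lines are limma estimates with 95% intervals, and diamonds and triangles are edgeR and DESeq2 estimates. The 3 tools gave nearly the same value for each gene, and the limma intervals of Vdac2, Micu3 and Mcu do not include 0 before adjustment for multiple testing.

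The pore gene Mcu (chromosome 10, 59446984 to 59616692, minus strand) had 434, 485 and 498 normalized counts in WT and 409, 426 and 337 in KO, in the order of the replicate numbers, as in all such lists here. Every KO library lay under every WT library, but KO replicate 2 and WT replicate 1 were only just apart and KO replicate 3 was the lowest. KO minus WT gave a log2 estimate of -0.28 (SE 0.13, limma adjusted p = 0.269), a KO level of 0.825 times WT with a 95% interval of 0.682 to 0.997. Without KO replicate 3 the estimate was -0.18.

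Smdt1, which encodes EMRE (chromosome 15, 82338959 to 82349091, plus strand), had 445, 416 and 324 normalized counts in WT and 245, 349 and 383 in KO. The groups overlapped, since KO replicates 2 and 3 exceeded WT replicate 3, and KO replicate 1 was the lowest of all 6 libraries. The log2 estimate, -0.29 (SE 0.17), missed the threshold (limma adjusted p = 0.391), and without KO replicate 1 it was -0.10. When library trends with GC content and length were removed, it was -0.07. Smdt1 had the highest GC content of the members, 58.3%, against 44.2% to 51.1% in the others. In the annotation Smdt1 shares 245 exonic bases with Pheta2 on the same strand, and Pheta2 was not analysed here.

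Micu2 (chromosome 14, 57916261 to 57999262, minus strand) was the steadiest gatekeeper gene. It had 195, 213 and 213 normalized counts in WT and 206, 219 and 209 in KO, and the libraries of both groups were interleaved. The log2 difference, 0.03 (SE 0.14), had a limma adjusted p of 0.946, and the interval of the KO to WT ratio, 0.833 to 1.25, leaves room for changes of that size.

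Micu3 (chromosome 8, 40307458 to 40386308, plus strand), the gatekeeper best known from brain, had few reads. It had 5, 12 and 7 reads in WT and 18, 12 and 20 in KO, which are 5.54, 11.2 and 6.46 normalized counts against 18.9, 12.7 and 18.0. The normalized counts did not overlap, although WT replicate 2 and KO replicate 2 rested on the same 12 reads. The log2(value + 1) fold change was 1.04 (SE 0.42, limma adjusted p = 0.203; edgeR adjusted p = 0.164), and DESeq2 gave no adjusted p at this depth. Without WT replicate 1 the fold change was 0.86, and without WT replicate 2 it was 1.31. Of the 75-base windows of its transcript, 5.81% also match Fgf20, an overlapping gene on the other strand that was not analysed here, and Nextera XT libraries do not mark the strand.

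Mcur1 (chromosome 13, 43538393 to 43560191, minus strand) was level between the groups. It stood at 878, 831 and 847 in WT and at 937, 802 and 808 in KO, where the KO libraries included both the highest and the lowest value. The fold change was -0.01 (SE 0.11, limma adjusted p = 0.98), with a 95% interval of 0.846 to 1.17 for the ratio of KO to WT, and its sign turned when counts were scaled by library total (0.05) or by TMM (0.00).

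**Figure D2:**
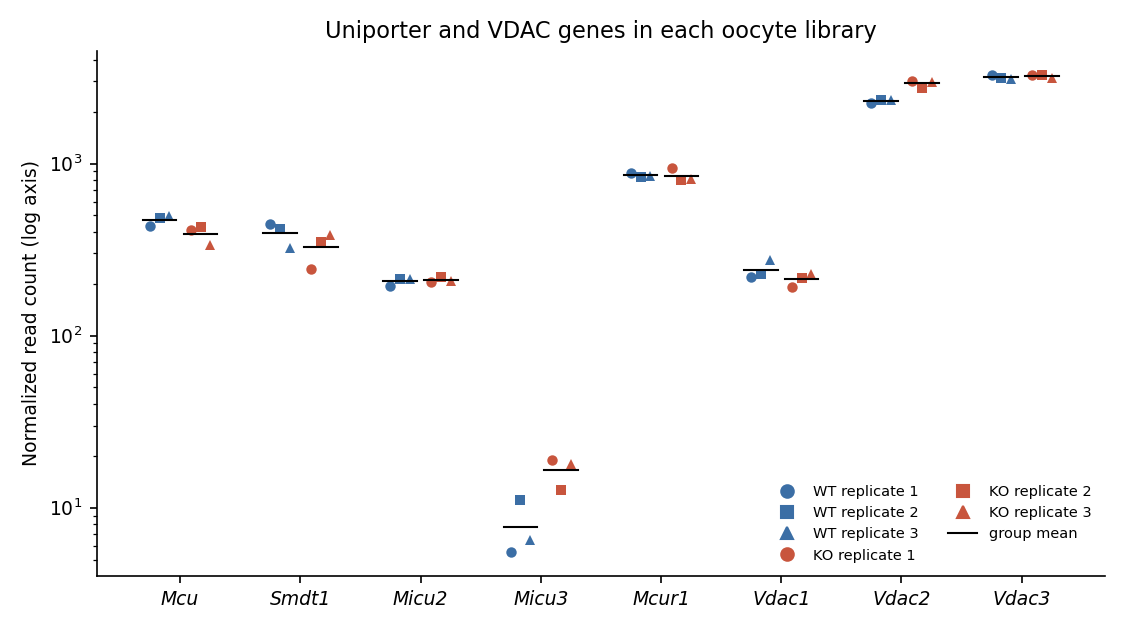
Each point is the normalized read count of a gene in 1 library (vertical log axis), for WT (blue, left) and KO (red, right), with symbols for replicates 1 to 3 and a line at the group mean. Vdac2 and Micu3 lie higher and Mcu lower in all 3 KO libraries, and the other members overlap.

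Mcub, the inhibitory paralog of the pore, is a uniporter gene outside the 8 members. It was at 179, 164 and 178 normalized counts in WT and 157, 173 and 167 in KO, where the groups overlapped (log2 fold change -0.07, SE 0.15, limma adjusted p = 0.866).

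Vdac2 (chromosome 14, 21825238 to 21845879, plus strand) was the member with the smallest p. Its normalized counts were 2236, 2338 and 2344 in WT and 3013, 2763 and 2976 in KO. All 3 KO libraries stood above all 3 WT libraries, by a gap larger than the range within either group. The log2 fold change was 0.34 (SE 0.10), a KO level of 1.26 times WT with a 95% interval of 1.10 to 1.46 before adjustment. The limma adjusted p was 0.0657, the edgeR adjusted p on recovered reads 0.0499, and that of DESeq2 0.0123, so the call changes with the tool. In the 6 limma fits without 1 library the log2 fold change stayed between 0.31 and 0.38 and the adjusted p between 0.0541 and 0.212. Without WT replicate 1, the library with the highest granulosa, theca and stromal sums, it was 0.32.

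A processed pseudogene, Gm7832, holds 18.4% of the 75-base windows of the Vdac2 transcript. Gm7832 (chromosome 5, 91760696 to 91761575) had 144, 183 and 177 normalized counts in WT and 206, 186 and 208 in KO, and its reads amounted to 6.45% to 7.84% of those of Vdac2 in WT and 6.73% to 6.98% in KO. With the reads of both added, the Vdac2 log2 fold change was 0.33 (limma adjusted p = 0.0706). Comtd1, on the other strand, shares 25 exonic bases with Vdac2. Its normalized counts, 47.7 ± 12.7 (WT) and 32.4 ± 10.3 (KO; SD, n = 3 each), were far under those of Vdac2.

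Vdac3 (chromosome 8, 22577075 to 22593813, minus strand) had the highest counts of the 8, with 3256, 3137 and 3109 in WT and 3285, 3273 and 3126 in KO. Both groups covered nearly the same range. The fold change was 0.03 (SE 0.09, limma adjusted p = 0.919), and the 95% interval of the KO to WT ratio was 0.887 to 1.17.

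Its pseudogene copy did not follow the same pattern. Vdac3-ps1 had 2873, 2726 and 2846 normalized counts in WT and 2543, 2545 and 2409 in KO. Every KO library lay under every WT library (log2 fold change -0.17, SE 0.10, limma adjusted p = 0.367). For each Vdac3 read there were 0.869 to 0.915 Vdac3-ps1 reads in WT and 0.771 to 0.778 in KO, ranges that did not overlap. This ratio was looked at after the values were seen and carries no test. How often such ratios separate over all genes was not computed. Added together, the pair stood at 6129, 5863 and 5955 in WT and 5828, 5818 and 5535 in KO. The log2 fold change of the sum was -0.06 (limma adjusted p = 0.788). Whether the reads of Vdac3-ps1 came from the pseudogene or from Vdac3 was not tested.

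**Figure D3:**
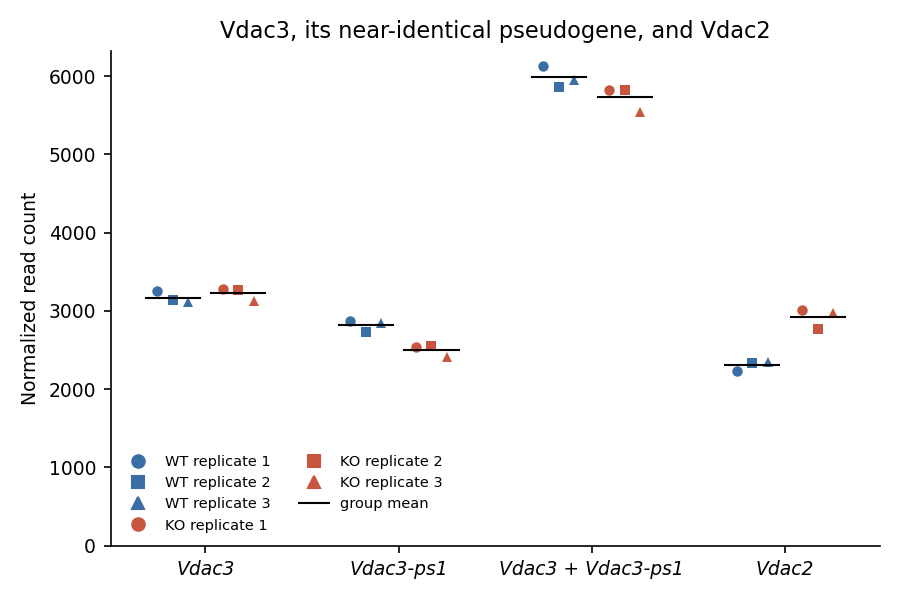
Normalized read counts (linear axis from 0) of Vdac3, of Vdac3-ps1, of their sum and of Vdac2 in each of the 6 libraries, with a line at each group mean. Vdac3 is level, Vdac3-ps1 lies lower in the 3 KO libraries (2409 to 2545 against 2726 to 2873 in WT), and Vdac2 lies higher.

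Vdac1 (chromosome 11, 52360860 to 52389397, plus strand), the main VDAC of many somatic tissues, was the scarcest of the family in these oocytes. It had 220, 228 and 276 normalized counts in WT and 191, 217 and 229 in KO. KO replicate 3 exceeded WT replicates 1 and 2, and the log2 difference was -0.18 (SE 0.15, limma adjusted p = 0.578).

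Levels were compared between genes as RPKM, reads scaled by the length of the principal transcript and by the library total, which assumes even coverage along the transcript. In WT, Vdac3 stood at 325 ± 12.6 RPKM and Vdac2 at 164 ± 4.52 (SD, n = 3 each), above 98.4% and 96.4% of protein-coding genes. Smdt1 followed at 77.9 ± 13.7, then Mcur1 at 27.3 ± 0.950 and Mcu at 22.8 ± 1.48. Per length, Smdt1 thus had 2.65 to 4.18 times the reads of Mcu in the WT libraries. The part of GC content or transcript length in this ratio was not tested.

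Lower in the WT order were Vdac1 at 16.5 ± 1.75 RPKM, Micu2 at 12.3 ± 0.593 and Micu3 at 0.484 ± 0.196, the last above only 35.2% of protein-coding genes. No neighbours in this order of the 8 members had overlapping library ranges in WT. Mcub (18.3 ± 0.714) lay between Mcu and Vdac1, and its range overlapped that of Vdac1. The KO libraries gave the same order of the 8 members, from Vdac3 at 344 ± 6.89 and Vdac2 at 216 ± 12.0 down to Micu3 at 1.08 ± 0.228. The order depends on the length used, at the top and in the middle. Over the union of all annotated exons, an alternative added after the data were seen, Vdac3 and Vdac2 stood at 81.1 and 67.1 RPKM in WT and at 86.0 and 88.4 in KO, where their ranges overlapped. On that scale Mcu, at 9.44 RPKM in WT and 8.13 in KO, lay under Vdac1 (12.8 and 11.7), overlapped Micu2 in WT (9.32) and lay under Micu2 in KO (9.89). Mcub had the higher mean beside Mcur1, 18.3 against 16.7 RPKM in WT and 18.2 against 17.3 in KO, with overlapping ranges in KO. For Vdac3 the exon union is 5420 bases long, against 1354 in the principal transcript.

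The make-up of the VDAC transcripts, per length, did not overlap between the groups. Vdac2 held 31.3%, 33.0% and 33.0% of the VDAC sum in WT and 38.0%, 35.9% and 38.6% in KO, and Vdac3 held 65.7%, 63.9% and 63.2% in WT and 59.7%, 61.4% and 58.5% in KO. Vdac1 made up 2.97% to 3.76% in WT and 2.33% to 2.87% in KO. The ratio of Vdac2 to Vdac1 was 8.78 to 10.6 in WT and 13.2 to 16.3 in KO. The size of these values depends on the length used. Over exon unions Vdac1 held 7.27% to 9.0% in WT and 5.57% to 6.79% in KO, and Vdac2 held 40.6% to 42.4% and 45.8% to 48.4%. The ratio of Vdac2 to Vdac1 was then 4.66 to 5.64 in WT and 7.01 to 8.66 in KO. The ranges of the 3 shares did not overlap between the groups with either length. The shares are parts of the same sum, so they are not separate results. No share of such separations over all genes was computed for shares or ratios. In normalized counts, 23.2% of all tested genes separated. The choice of length scales the ratio of Vdac2 to Vdac1 alike in all libraries, so its separation could not differ between lengths. The normalized counts of Vdac1 and of Vdac3 alone overlapped between the groups, and only those of Vdac2 did not. These shares are read from the same counts as the fold changes above and carry no test, and the reads of Vdac3-ps1 are not in them.

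Within the uniporter, the ratios to Mcu overlapped between the groups for Smdt1, Mcub and Mcur1, and did not for Micu2 and Micu3. Per length, the ratio of Smdt1 reads to Mcu reads was 2.65 to 4.18 in WT and 2.44 to 4.63 in KO. For Mcub the ratio was 0.735 to 0.897 in WT and 0.835 to 1.08 in KO, and for Mcur1 it was 1.13 to 1.34 and 1.25 to 1.58. Micu2 was narrower, at 0.528 to 0.555 in WT and 0.621 to 0.763 in KO, and these ranges did not overlap. The normalized counts of Micu2 alone overlapped between the groups, whereas those of Mcu, the divisor, did not. The ratios carry no test, and no share of such separations over all genes was computed for ratios. Micu3 made up 0.0166 to 0.0298 of Mcu in WT and 0.0385 to 0.0690 in KO. With exon-union lengths the ratio to Mcu was 1.77 to 2.17 (WT) and 2.02 to 2.61 (KO) for Mcub, above 1 in every library, 0.964 to 1.01 and 1.13 to 1.39 for Micu2, and 1.67 to 1.99 and 1.85 to 2.35 for Mcur1. A length scales a gene's ratio alike in all libraries, so which ratios overlapped between the groups was the same.

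**Figure D4:**
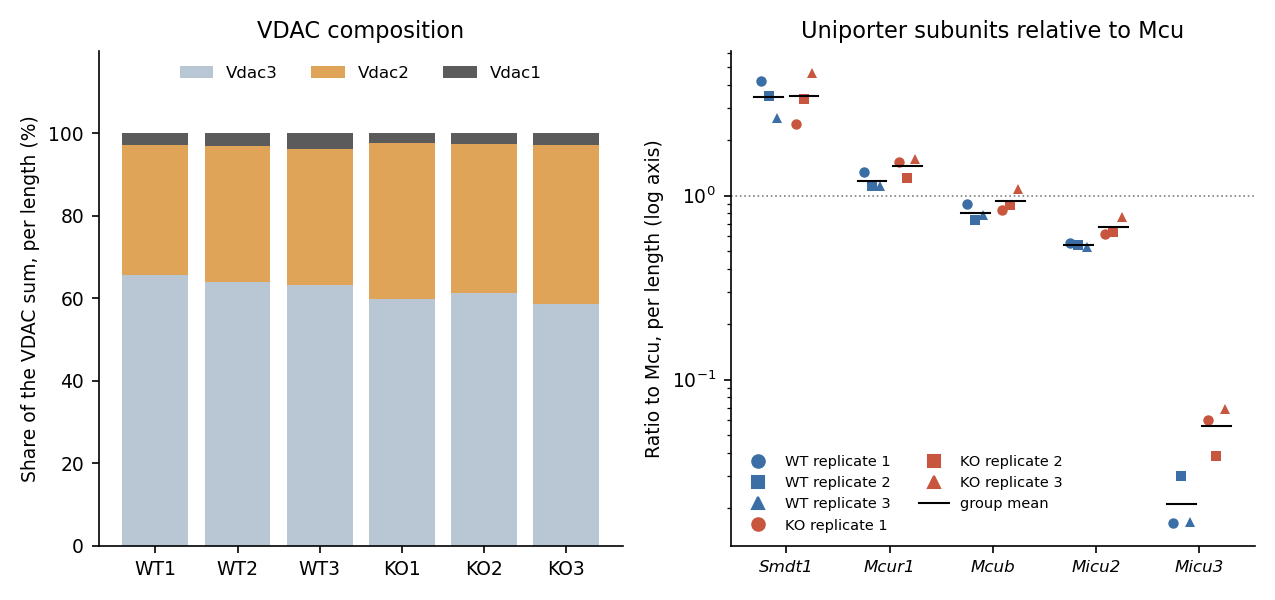
Left, the share (%) of Vdac1, Vdac2 and Vdac3 in their length-scaled sum for each library. Right, the length-scaled ratio of uniporter genes to Mcu (log axis, dotted line at 1) by library, with a line at the group mean. The Vdac2 share is 31.3% to 33.0% in WT and 35.9% to 38.6% in KO, and Smdt1 is above and Micu3 far under Mcu in every library.

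The members did not share a common pattern over the 6 libraries. On log2 values, the Pearson correlation was 0.92 between Vdac2 and Micu3, -0.76 between Vdac2 and Mcu and -0.80 between Vdac1 and Vdac3. These were the 3 largest absolute values among all pairs of the 8 members, and Micu3 rests on 5 to 20 reads. The 6 points share the split into 2 groups, so such values are a description. By the same measure, among protein-coding genes with a mean of at least 100 normalized counts, the genes most like Vdac2 were Cenph, Rimkla and Pwp2 (r of 0.999, 0.996 and 0.996), those most like Mcu were Wdr70, Zufsp and Ebna1bp2 (0.983 to 0.989), and those most like Smdt1 were Upk3bl, Fis1 and Brk1 (0.983 to 0.994). For Vdac1 they were Evi5, Rbm17 and Cd300lf, for Vdac3 Gpr35, Prkar2a and Lin54, for Mcur1 Nfxl1, Slain2 and Pigx, for Micu2 Abraxas1, Rnf32 and Tmem181a, and for Micu3 Ugcg, Pik3cd and Gga3, with r from 0.942 to 0.998. Each set of 3 is the top of 6144 candidates (6145 for Micu3), with model symbols such as Gm numbers left out. Picked from so many genes over 6 libraries, high r values arise by selection and carry no test.

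Around the uniporter, none of 13 tested genes of mitochondrial calcium transport passed the limma test, Mcub among them, against 3.28% of all tested genes. None was called by edgeR or DESeq2, and 1 had an unadjusted limma p under 0.05, against 18% of all tested genes. The median log2 fold change of the 13 was -0.06, beside -0.01 for all tested genes. Tmem65, an inner membrane protein tied to sodium-dependent calcium release, had 88.7, 93.9 and 122 normalized counts in WT and 176, 149 and 113 in KO (0.51, SE 0.20, limma adjusted p = 0.173). KO replicate 3 lay within the WT range. Slc25a25, a calcium-regulated ATP-Mg/Pi carrier, was low in all libraries, at 4.62 to 10.2 in WT and 10.6 to 25.2 in KO, which did not overlap (limma adjusted p = 0.286). The sodium-calcium exchanger gene Slc8b1 was not analysed here.

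Genes that assemble EMRE and the uniporter or break them down gave no limma call among 11 tested, against 3.28% of all tested genes. At an unadjusted p under 0.05 there were 2, against 18% of all tested genes, and the median was -0.04. Phb, a prohibitin of the inner membrane scaffold, had 897, 845 and 874 normalized counts in WT and 665, 681 and 641 in KO. The groups lay well apart, and the fold change was -0.40 (SE 0.11, limma adjusted p = 0.0513). It was called by edgeR (adjusted p = 0.0371) and DESeq2 (0.0140). Maip1, a matrix protein that protects EMRE on its way to assembly, was at 3.69 to 9.98 in WT and 9.51 to 21.6 in KO, which overlap (limma adjusted p = 0.245). Afg3l2, the protease that removes unassembled EMRE, had 279 ± 14.2 normalized counts (WT) and 306 ± 30.4 (KO; SD, n = 3 each; limma adjusted p = 0.684) and was named after its values were seen.

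Partners of the VDACs were tested as 15 genes, and none passed in limma, against 3.28% of all tested genes. At an unadjusted p under 0.05 there were 4, against 18% of all tested genes, and the median was -0.03. Itpr1, an inositol trisphosphate receptor that releases calcium in eggs, had 144, 199 and 157 normalized counts in WT and 280, 221 and 236 in KO. Its groups did not overlap, and the fold change was 0.56 (SE 0.16, limma adjusted p = 0.0666; edgeR 0.0596; DESeq2 0.0494). Tspo, an outer membrane protein of steroid-making cells, was at 35.5, 10.2 and 6.46 in WT and 7.35, 4.23 and 1.80 in KO (adjusted p = 0.178). Its high value fell in WT replicate 1, the library with the highest sums of theca and granulosa markers, and the part of those cells in it was not tested.

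Import and assembly of outer membrane beta-barrel proteins had 1 rise and no fall among 13 tested genes, with a median of 0.12, where 3.28% of all tested genes were called. At an unadjusted p under 0.05 there were 5 (2 higher, 3 lower), against 18% of all tested genes, and 5 had groups that did not overlap, against 23.2%. The rise was Tomm20, a receptor of the import pore through which VDAC precursors pass, with 66.5, 53.0 and 63.7 normalized counts in WT and 145, 150 and 246 in KO (log2 fold change 1.51, SE 0.21, limma adjusted p = 0.00256). All KO libraries were above all WT libraries, and KO replicate 3 was the highest. In the 6 fits without 1 library its limma adjusted p stayed at or under 0.0169. Assembly factors of the sorting machinery and Dnajc11 did not pass in limma. The log2 fold change was -0.34 for Mtx2 (limma adjusted p = 0.164), -0.25 for Mtx1 (0.24) and -0.23 for Dnajc11 (0.226). These were the 3 lower genes at an unadjusted p under 0.05. Samm50 gave 0.15 (0.759) and Mtx3, low in all libraries, 0.46 (0.646). All 5 were named after their values were seen.

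The list on calcium-responsive mitochondrial metabolism also had 1 rise and no fall among 13 tested genes, with a median of 0.18. The same 3.28% of all tested genes were called. The list also holds genes of pyruvate dehydrogenase kinases and subunits (Pdk1, Pdk2, Pdk3, Pdha1 and Pdhb), so not every member is itself a calcium sensor. At an unadjusted p under 0.05 there were 5 (4 higher, 1 lower), against 18%, and 2 had groups that did not overlap, against 23.2%. The rise was Gpd2, the glycerol-3-phosphate dehydrogenase of the inner membrane, whose outer face senses calcium. Gpd2 had 81.0, 118 and 77.6 normalized counts in WT and 115, 229 and 226 in KO (0.99, SE 0.25, limma adjusted p = 0.0379; edgeR 0.0288; DESeq2 0.00459). The groups overlapped, because KO replicate 1 lay under WT replicate 2, and the call was kept only without KO replicate 1 (limma adjusted p = 0.00121). It was lost without WT replicate 1 (0.112), 2 (0.0504) or 3 (0.160) and without KO replicate 2 (0.137) or 3 (0.125).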

How the data were processed

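The authors deposited a signal per gene and library, namely read counts over a size factor. Per the file headers, DESeq2 and Partek were involved. The submitters' processing notes list cutadapt, FastQC, STAR, DESeq, DESeq2, GRCm38 and mm10. Not given in the sources used here were their versions, the annotation and the treatment of reads with several matches. Per the labels' protocols, Smart-Seq2 cDNA of 5 oocytes went into Nextera XT libraries read as 75-base pairs. Values were multiples of a step worth 1 read (0.899 to 1.11), and 100% of those above 0 gave whole reads within 0.1 reads. Amplified reads are not independent molecules. Deposited gene ends lay 1 base past GENCODE M21 (GRCm38) for 95.6% of matched genes and are printed 1 base lower.

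The 18762 genes that reached a value of 1 in 3 or more libraries were compared as log2(value + 1) with limma-trend (limma 3.58.1, R 4.3.3), two-sided, KO minus WT, with no covariate, Benjamini-Hochberg adjustment and a threshold of 0.05. This scale understates the fold of low genes. The design had named this test for normalized values. Alternatives were edgeR 4.0.16 (quasi-likelihood, TMM) and DESeq2 1.42.0 on recovered reads, other scalings, filters and pseudocounts, a replicate block and fits without 1 library. The fits were tested on simulated data. Windows of 75 bases, every 25 bases, of each principal transcript were compared with all GENCODE transcripts at up to 1 mismatch.

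The members and lists were chosen with earlier results of these data known. From each list, up to 6 genes past the threshold are named, or else the 2 of smallest p, and for each member the 3 genes of highest correlation. Of the listed genes, Slc8b1, Slc25a41, Ucp2, Ucp3, Bak1, Ckmt1, Star, Cyp17a1, Lum, Emcn and Ptprc were not analysed here, and Pdk4 was under the filter. The result of 1 gene of the calcium transport list is not reported here, though the list's counts include it. Summed markers came to 196 to 250 (WT) and 168 to 260 (KO) for endothelial cells, 23.2 to 78.7 and 12.7 to 17.9 for immune cells, and 15.8 to 29.9 and 12.7 to 26.1 for surface epithelium.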

Additional observations from a re-analysis of the deposited data

How the results depend on the processing

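Vdac2 missed the limma threshold (log2 fold change 0.34, adjusted p = 0.0657) and passed it with a filter of 5 CPM (adjusted p = 0.0409), with scaling by library total (0.40, adjusted p = 0.0315), in edgeR (adjusted p = 0.0499) and in DESeq2 (adjusted p = 0.0123), so that 1 member was called in each of these 4 and 0 in the other alternatives. Micu3 was not tested with the 5 CPM filter. The cause was not tested. Signs turned only for values near 0. Micu2 was -0.012 with the GC and length trend removed and ran from -0.014 to 0.049 in fits without 1 library. Mcur1 was 0.049 by library total and 0.0021 by TMM, and ran from -0.082 to 0.030 without 1 library. Vdac3 was -0.0026 with the trend removed and -0.063 with Vdac3-ps1 added. Over all genes, 351 were higher and 264 lower in KO (57.1% of the calls higher, against 73.5% by library total and 48.0% with the trend removed). DESeq2 gave 401 lower. Fits without 1 library gave 71 to 459 higher and 41 to 430 lower, or 39 to 438 and 30 to 406 over the genes of the 6-library filter, with 0 members called in each. That last gene set and the sums with Vdac3-ps1 and Gm7832 were alternatives chosen after seeing the data.

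With a replicate block, 246 genes were higher and 175 lower, and Vdac2 had an adjusted p of 0.144. Deviations of same-numbered libraries correlated at -0.14, -0.0674 and -0.0752 over 11309 genes, and those of differently numbered libraries at -0.117 to 0.176. Deviations from a mean of 3 libraries cannot decide whether the numbers pair the samples. The spread of 3 pools per group leaves intervals such as 0.833 to 1.25 for the KO to WT ratio of Micu2, and Micu3, with 5 to 20 reads, is limited by depth.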
